A study of Mus musculus with 12 samples.

Results

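The immunoglobulin variable segment genes described here are the 27 genes of the deposited count table whose mouse symbol starts with Ighv, Igkv or Iglv and whose count was above 0 in at least 3 of the 12 libraries. They were taken from 348 such genes in a table of 56941 genes. The heavy chain locus on chromosome 12 gave 5 members of 185 genes, the kappa locus on chromosome 6 gave 20 of 160, and the lambda locus on chromosome 16 gave 2 of 3. The members were thus chosen by their counts in these libraries, and their detection is a description and not a finding.

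CH12F3-2A, the line used throughout, is a mouse B cell lymphoma with IgM on its cells, and it can be induced to switch to IgA. All groups received pX459, a plasmid that carries Cas9, by Neon transfection, and 72 h of puromycin selection. The guide was non-targeting (sgCtr) or directed at Nop16 (sgNop16), and cells then had no stimulus or 24 h of CIT, which holds anti-CD40L at 1 μg/ml, mouse IL-4 at 20 ng/ml and human TGF-β at 1 ng/ml, both recombinant. Each of the 4 groups, sgCtr without CIT, sgCtr with CIT, sgNop16 without CIT and sgNop16 with CIT, had 3 libraries, stated to be biological replicates. No further guide against Nop16 is named in the labels, and all groups come from 1 line. The question of the study is how NOP16, which sits in the nucleolus, bears on the switch to IgA.

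A B cell builds the variable exon of each antibody chain by joining a variable segment to a joining segment, with a diversity segment between them in heavy chains. A productive joint is kept in all progeny of that cell, so a clonal line is known to use a single variable segment per chain, while the promoters of other segments can give germline transcripts. Kappa variable segments lie in both orientations along their locus, and joining a segment that points the other way inverts the DNA in between, where the usual joint deletes it.

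In these libraries Ighv1-53 stood far above the others in the heavy chain locus, and Igkv10-96 did so in the kappa locus. Iglv3 led the lambda locus at a much lower level and by a smaller margin. The coding sequences of Igkv10-96 and of its nearest copies, Igkv10-94 and Igkv10-95, are shown because the count of a copy depends on how reads of such similar segments were assigned. Shown are the last 300 bases of the joined coding exons of the GRCm38 transcripts (GENCODE M21), on the coding strand and 5′ to 3′, and capitals mark bases that differ from Igkv10-96.
Igkv10-96: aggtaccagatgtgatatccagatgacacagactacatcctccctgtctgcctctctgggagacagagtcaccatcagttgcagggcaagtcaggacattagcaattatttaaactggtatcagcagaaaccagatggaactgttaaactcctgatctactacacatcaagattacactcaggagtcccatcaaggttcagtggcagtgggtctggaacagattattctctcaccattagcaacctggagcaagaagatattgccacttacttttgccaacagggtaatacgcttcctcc
Igkv10-94: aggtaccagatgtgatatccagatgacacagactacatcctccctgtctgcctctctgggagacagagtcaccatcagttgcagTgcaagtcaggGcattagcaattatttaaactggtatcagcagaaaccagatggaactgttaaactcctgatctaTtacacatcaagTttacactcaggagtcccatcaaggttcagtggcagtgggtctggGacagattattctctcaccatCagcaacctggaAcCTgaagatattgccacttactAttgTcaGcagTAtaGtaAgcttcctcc
Igkv10-95: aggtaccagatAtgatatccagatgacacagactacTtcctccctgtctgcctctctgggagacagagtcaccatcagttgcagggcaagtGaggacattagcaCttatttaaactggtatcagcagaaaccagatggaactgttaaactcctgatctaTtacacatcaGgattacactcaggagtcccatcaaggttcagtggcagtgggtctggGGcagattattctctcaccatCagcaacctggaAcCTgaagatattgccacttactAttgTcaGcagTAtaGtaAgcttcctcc
Over the whole coding sequence Igkv10-94 differed from Igkv10-96 at 16 of 347 bases, with an unbroken identical stretch of 131 bases. Igkv10-95 differed from it at 20 bases, with a longest identical stretch of 54 bases, and from Igkv10-94 at 10.

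The heavy chain segment Ighv1-53, and the pair of kappa segments whose levels moved in opposite directions with CIT, Igkv14-111 and Igkv12-89, are shown in the same way and without capitals.
Ighv1-53: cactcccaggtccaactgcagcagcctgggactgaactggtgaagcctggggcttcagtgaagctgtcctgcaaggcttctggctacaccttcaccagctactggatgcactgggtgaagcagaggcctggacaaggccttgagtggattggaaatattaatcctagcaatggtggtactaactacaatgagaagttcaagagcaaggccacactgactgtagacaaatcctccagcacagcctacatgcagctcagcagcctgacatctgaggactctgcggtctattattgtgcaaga
Igkv14-111: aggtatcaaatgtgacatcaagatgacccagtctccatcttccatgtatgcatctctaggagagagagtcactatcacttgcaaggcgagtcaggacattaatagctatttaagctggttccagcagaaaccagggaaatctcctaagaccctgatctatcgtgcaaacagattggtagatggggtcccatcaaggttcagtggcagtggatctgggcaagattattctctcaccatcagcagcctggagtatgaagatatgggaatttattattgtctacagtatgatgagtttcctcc
Igkv12-89: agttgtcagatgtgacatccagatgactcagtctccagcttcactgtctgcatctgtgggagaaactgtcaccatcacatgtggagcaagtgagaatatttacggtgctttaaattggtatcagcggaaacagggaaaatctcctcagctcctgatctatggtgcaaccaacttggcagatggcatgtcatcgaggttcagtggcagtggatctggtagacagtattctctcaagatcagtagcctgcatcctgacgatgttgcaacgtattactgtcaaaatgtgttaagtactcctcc
Ighv1-55, Ighv1-61 and Ighv1-52 matched Ighv1-53 at 95.4%, 92.6% and 92.0% of 351 bases. Igkv14-111 matched Igkv10-96 at 78.0% of 345 bases and Igkv12-89 matched it at 74.2% of 329. Both are thus far less alike to the dominant segment than its near copies are. A sequence here is that of the reference, not of the rearranged gene in the line.

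Levels are given as CPM, counts scaled to library size, with the SD over 3 libraries, and a library held between 38866418 and 48615177 counts in all. The B cell markers fixed for the check summed to between 3729 and 4249 CPM in every library, and none of the 8 was at 0 throughout. T cell, fibroblast and erythroid markers summed to at most 2.60, 0.919 and 2.59 CPM, and Col1a2, Dcn and Pdgfra of fibroblasts were at 0 in all libraries. The 5 macrophage markers summed to 7.70 to 10.9 CPM without CIT and 11.9 to 18.2 CPM with it, mainly from Cd68 and Csf1r, with Lyz2 at 0 throughout. The 5 plasma cell markers summed to 259 to 307 CPM without and 372 to 396 CPM with CIT, a rise that came from Irf4 and Xbp1. Under sgCtr the group means went from 129 to 196 CPM for Irf4 and from 145 to 173 CPM for Xbp1. Prdm1 (9.34 to 1.95 CPM) and Jchain (16.05 to 9.59 CPM) went down, and Sdc1 reached at most 0.153 CPM. Irf4, Xbp1, Prdm1 and Jchain moved the same ways under sgNop16. The part of these markers in the results was not tested. The guided gene, Nop16, was at 106.3 ± 2.35 CPM with sgCtr and 85.7 ± 3.10 CPM with sgNop16 without CIT (SD, n = 3). With CIT it was at 77.1 ± 3.46 and 65.7 ± 0.930 CPM. Its log2 differences between guides were -0.31 ± 0.04 (SE) and -0.23 ± 0.04, with adjusted p of 0.0001087 and 0.002044 in edgeR's quasi-likelihood test. In bulk libraries fewer cells that carry an RNA and less of that RNA per cell cannot be told apart.

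Detection was sparse outside the dominant segments. Of the 348 genes, 299 had a count of 0 in every library, 18 were above 0 in 1 library and 4 in 2. Just inside the threshold, above 0 in 3 libraries each, lay Igkv12-46, Igkv12-40, Igkv12-47 and Ighv1-52. Just outside, above 0 in 2 libraries each, lay Ighv1-62-3, Igkv15-97, Igkv2-105 and Igkv4-91. The 321 genes that were not members held 105 counts in all over the 12 libraries. For comparison, variable segments of T cell receptor loci, which B cells do not assemble, gave no gene past the same threshold among 170, and 5 counts in all.

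A library held counts for 18 to 23 of the 27 members, and 7 members were above 0 in all 12 libraries. The mean count was under 12 for 17 members. Low values were in excess at multiples of 4, so that a fragment may count as about 4, and such members rest on very few fragments. The annotation calls 6 members pseudogenes (Igkv2-107, Igkv1-108, Igkv13-87, Igkv12-40, Igkv12-47 and Igkv2-93-1), and none of the 27 shares annotated exons with another gene. The plot of all members by library shows the gap between the segments that lead each locus and the rest.

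**Figure D1:**
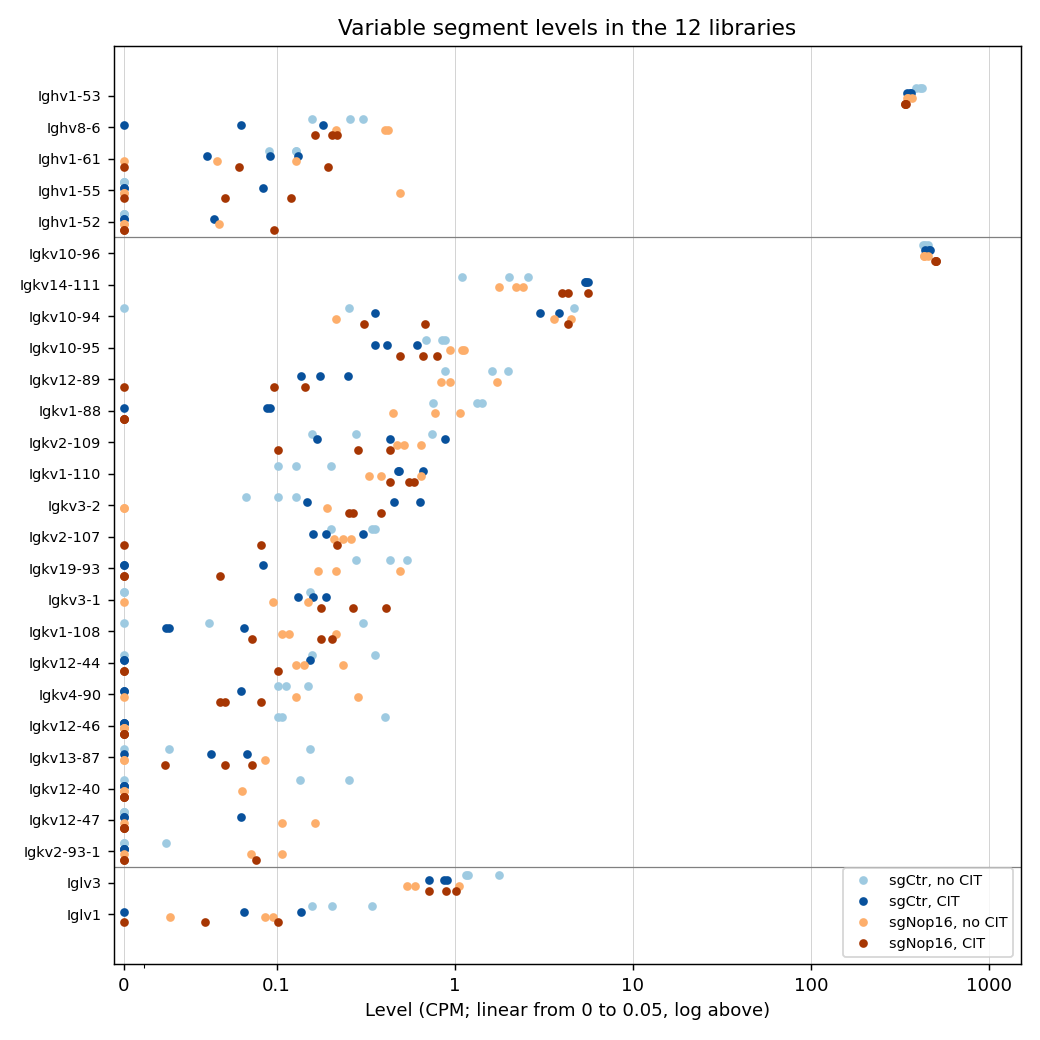
Level of each of the 27 variable segment members in each of the 12 libraries, in CPM on an axis that is linear near 0 and logarithmic above, with 1 point per library coloured by group. Ighv1-53 and Igkv10-96 lie between 335 and 504 CPM, and no other member reaches 6 CPM in any library.

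The dominance of 1 segment was nearly complete in the heavy chain and kappa loci. Ighv1-53 held 99.74 to 99.96% of the counts of the heavy chain members in the 12 libraries. Per kilobase of annotated exon its mean level over all libraries was 1710-fold that of the next heavy chain segment, Ighv8-6 (1035 against 0.605 CPM per kilobase). Igkv10-96 held 97.2 to 98.7% of the kappa counts, and its level per kilobase was 133-fold that of Igkv14-111 (1277 against 9.61 CPM per kilobase).

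In the lambda locus the leading segment stood less far apart. Iglv3 held at least 77.5% of the lambda counts in each library, on 25 to 79 counts of its own per library, and its level per kilobase was 9.33-fold that of Iglv1 (2.50 against 0.268 CPM per kilobase). Iglv2 had 7 counts in 1 sgNop16 library without CIT and 0 in the others, so it was not a member.

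No difference in the share of the dominant segment, with CIT or between guides, passed the test. For Ighv1-53 it was 99.91 ± 0.0236% with sgCtr and 99.84 ± 0.0932% with sgNop16 without CIT, and 99.94 ± 0.0264% and 99.89 ± 0.0675% with CIT. The share of Igkv10-96 was 97.9 ± 0.419% and 97.7 ± 0.456% in unstimulated cells, and 97.7 ± 0.552% and 98.2 ± 0.376% with CIT. The share of Iglv3 was 84.7 ± 7.20% and 90.1 ± 6.71% without CIT, and 93.2 ± 6.82% and 95.2 ± 4.57% with CIT.

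The summed level of all other segments was tested in the same way. The other 19 kappa segments together gave 9.23 ± 1.86 CPM with sgCtr and 10.2 ± 2.13 CPM with sgNop16 without CIT, and 10.6 ± 2.38 and 8.97 ± 1.89 CPM with CIT. The other heavy chain segments gave 0.356 ± 0.0968 and 0.587 ± 0.352 CPM without CIT, and 0.214 ± 0.0964 and 0.370 ± 0.225 CPM with CIT. In an exact two-sided permutation test, with labels exchanged within guide or within state over 400 arrangements, the p values of the 12 tests of share and summed level ran from 0.055 to 0.94. Their Benjamini-Hochberg adjusted values ran from 0.285 to 0.94, and the smallest p the design allows is 0.005. After adjustment over the 12 tests a single test at that p would still miss 0.05. A lack of passing tests therefore does not show that shares or sums were equal.

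Of the 27 members, 14 had enough counts to enter the test across 16794 genes, and calls below are at an adjusted p under 0.05 in edgeR's quasi-likelihood test. Several of the 14 passed the count filter through 1 state only, so counts of calls among them describe the tested members and not all segments. Each comparison of groups shares libraries with others (a guide difference with each CIT response, and the interaction with all), and their results are therefore given side by side without any measure of likeness.

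Ighv1-53 was highest in unstimulated sgCtr cells and lower in the other groups. Without CIT the 3 libraries were at 419, 407 and 388 CPM with sgCtr and at 349.6, 346 and 367 CPM with sgNop16. With CIT they were at 358, 363 and 346 CPM with sgCtr and at 343, 339 and 335 CPM with sgNop16. The unstimulated sgCtr libraries lay above all other libraries, and the sgNop16 libraries with CIT lay below all others.

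The means of Ighv1-53 were 405 ± 15.8 CPM (sgCtr) and 354 ± 11.1 CPM (sgNop16) without CIT, and 355 ± 8.84 and 339 ± 3.65 CPM with CIT. Ighv1-53 was lower with sgNop16 than with sgCtr without CIT, by a log2 difference of -0.19 ± 0.03 (SE, adjusted p 0.0004717). With CIT the guide difference was -0.07 ± 0.03 and missed the threshold (adjusted p 0.2387), with every sgNop16 library below every sgCtr library. It fell with CIT under sgCtr by a log2 difference of -0.19 ± 0.03 (adjusted p 2.77e-05). Under sgNop16 the difference was -0.06 ± 0.03 (adjusted p 0.1238). The interaction, sgNop16 minus sgCtr in the response to CIT, was 0.12 ± 0.04 (p 0.009774, adjusted p 0.153), so the responses under the 2 guides were not shown to differ.

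Igkv10-96 showed a different order of groups. Without CIT the libraries were at 452, 436 and 428 CPM with sgCtr and at 431, 433 and 454 CPM with sgNop16, and the groups overlapped. With CIT they were at 467, 461 and 438 CPM with sgCtr and at 497, 504 and 501 CPM with sgNop16. The 3 sgNop16 libraries with CIT lay above all others.

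The means of Igkv10-96 were 439 ± 12.2 CPM (sgCtr) and 439 ± 12.9 CPM (sgNop16) without CIT, and 455 ± 14.9 and 501 ± 3.47 CPM with CIT. It rose with CIT under sgNop16 by a log2 difference of 0.19 ± 0.03 (SE, adjusted p 1.201e-05), and it was higher with sgNop16 than with sgCtr under CIT by 0.14 ± 0.03 (adjusted p 0.004107). Under sgCtr the CIT difference was 0.05 ± 0.03 (adjusted p 0.1474), and the guide difference without CIT was 0.00 ± 0.03 (adjusted p 0.988). The sgCtr call depended on the processing: adjusted p was 0.01401 with library totals in place of TMM factors, 0.02388 with a stricter count filter, and 0.03952 without sgCtr CIT replicate 3.

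The interaction of Igkv10-96 was 0.14 ± 0.04 (p 0.003371, adjusted p 0.08308). It passed the threshold in DESeq2 (0.13, adjusted p 0.02911) and in edgeR without unstimulated sgNop16 replicate 3 (0.16, adjusted p 0.0459). With Igkv10-94, Igkv10-95 and Igkv10-96 summed into 1 feature, the guide difference under CIT was 0.14 (adjusted p 0.003995), the CIT response under sgNop16 0.18 (adjusted p 1.378e-05) and the interaction 0.13 (adjusted p 0.0964).

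**Figure D2:**
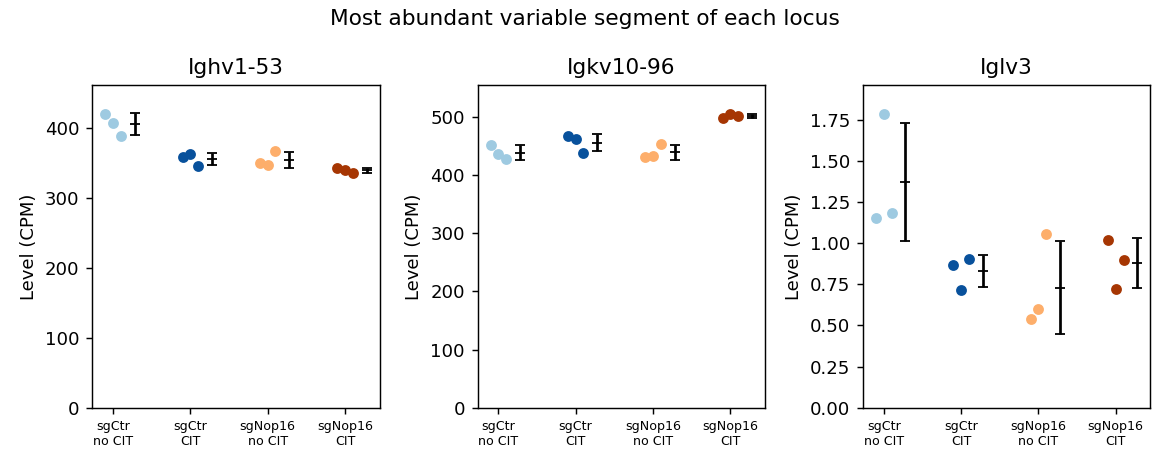
Levels of Ighv1-53, Igkv10-96 and Iglv3 in CPM on axes that start at 0, with 1 point per library and a bar for the mean ± SD of the 3 libraries of each group. Unstimulated sgCtr libraries lie highest for Ighv1-53, at 388 to 419 CPM, and sgNop16 libraries with CIT lie highest for Igkv10-96, at 497 to 504 CPM.

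Iglv3, the leading lambda segment, was at 1.15, 1.78 and 1.18 CPM with sgCtr and at 0.537, 0.598 and 1.06 CPM with sgNop16 without CIT. With CIT it was at 0.869, 0.717 and 0.901 CPM with sgCtr and at 1.02, 0.720 and 0.896 CPM with sgNop16. None of its 5 comparisons was called. Without CIT all sgNop16 libraries lay below all sgCtr libraries, with a log2 difference of -0.91 ± 0.39 (SE, adjusted p 0.2514).

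The level of variable segments was set beside that of the constant genes of the same locus, both summed per kilobase of annotated exon. The summed heavy chain segments were at 67.3 ± 2.55% of the constant genes with sgCtr and 66.9 ± 1.49% with sgNop16 without CIT, and at 60.5 ± 1.502% and 60.8 ± 1.49% with CIT. For each guide the 3 libraries with CIT lay below the 3 without. The constant sum includes gamma genes that rose with CIT, such as Ighg2b, at 7.20 and 7.84 CPM without and 130.02 and 166 CPM with CIT (sgCtr and sgNop16). Against Ighm alone, a denominator chosen after the values were seen, the heavy segments were at 86.1 ± 3.27% and 86.5 ± 2.06% without CIT and 83.9 ± 2.02% and 85.7 ± 2.50% with CIT, and the libraries overlapped for each guide. The kappa shares were 87.9 ± 0.611% and 89.5 ± 5.04% in unstimulated cells and 93.0 ± 4.07% and 88.9 ± 1.17% with CIT, and the groups overlapped. For lambda the variable segments were at only 0.280 to 0.544% of the constant genes in the group means, with Iglc2 alone at 281 to 420 CPM.

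**Figure D3:**
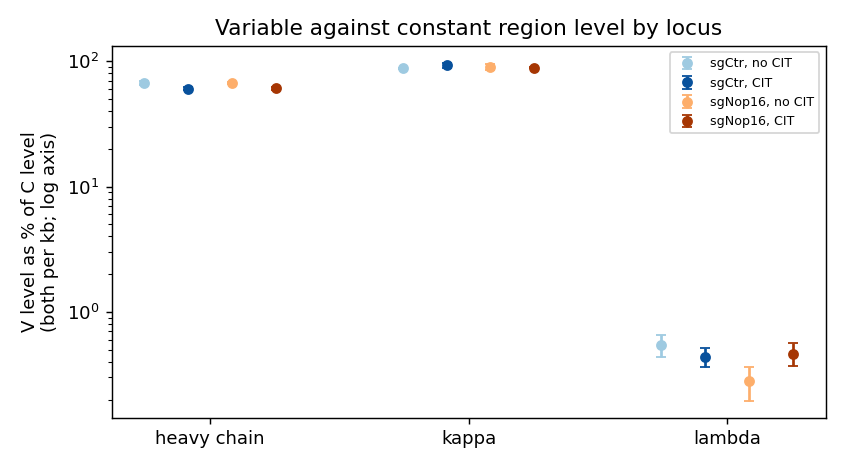
Summed level of variable segment members as a percent of the summed level of the constant genes of the same locus, both in CPM per kilobase of annotated exon. Each group has 1 point at its mean with a bar of SD, on a logarithmic axis. Group means lie between 60.5 and 93.0% for heavy and kappa and under 0.7% for lambda.

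The constant gene that belongs with each dominant segment was tested in the same model. Ighm, the mu constant gene, was lower with sgNop16 by a log2 difference of -0.20 ± 0.02 without CIT (adjusted p 9.09e-07) and -0.10 ± 0.02 with CIT (adjusted p 0.002495). Its CIT responses were -0.15 ± 0.02 under sgCtr (adjusted p 1.072e-06) and -0.05 ± 0.02 under sgNop16 (adjusted p 0.0482). These lie beside -0.19, -0.07, -0.19 and -0.06 for Ighv1-53 in the same order, of which the unstimulated guide difference and the sgCtr CIT response were called. Igkc, the kappa constant gene, was higher with sgNop16 under CIT by 0.19 ± 0.03 (adjusted p 2.346e-05), rose with CIT under sgNop16 by 0.19 ± 0.03 (adjusted p 1.636e-06) and had an interaction of 0.21 ± 0.04 (adjusted p 0.001277). Iglc2, a lambda constant gene, fell with CIT under both guides, by log2 differences of -0.57 ± 0.03 and -0.53 ± 0.03 (adjusted p 1.702e-14 and 8.729e-14), while Iglv3 was not called.

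With CIT some tested members rose and others fell. Under sgCtr 6 of the 14 tested members were called, 2 higher and 4 lower, against 41.7% of all tested genes called. Under sgNop16 5 were called, 2 higher and 3 lower, against 37.8% of all genes. By direction, 20.6% of all genes were higher and 21.1% lower under sgCtr, and 19.3% and 18.5% under sgNop16. The libraries with and without CIT did not overlap for 9 of the 14 members under each guide, against 50.6% and 47.0% of all genes. These shares of members are near the background. Without the dominant segments the calls under sgCtr were 5: Igkv14-111 and Igkv1-110 higher, Igkv12-89, Igkv1-88 and Igkv19-93 lower. Under sgNop16 they were 4: Igkv14-111 higher, the same 3 lower. The 3 lower members passed the count filter through their unstimulated libraries only. The filter thus kept them for their level without CIT, which favours a called fall. Their calls do not show how often segments fell.

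Igkv14-111, the second kappa segment, rose with CIT. It was at 2.58, 2.03 and 1.09 CPM in unstimulated sgCtr libraries and at 5.37, 5.63 and 5.43 CPM with CIT. Under sgNop16 it went from 2.40, 1.77 and 2.21 CPM to 4.01, 4.30 and 5.59 CPM. All libraries with CIT lay above all libraries without. On the log2 scale it rose by 1.53 ± 0.25 (SE, adjusted p 2.389e-05) under sgCtr and by 1.12 ± 0.25 (adjusted p 0.0008406) under sgNop16. By summed counts the levels were 2.94-fold (95% exact counting interval 2.21 to 4.04) and 2.16-fold (1.62 to 2.91) higher, where intervals take a fragment as 4 counts and cover counting error only.

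Igkv12-89 fell with CIT. Its estimated counts were 63, 39 and 93 in unstimulated sgCtr libraries and 6, 12 and 8 with CIT. Under sgNop16 they were 80, 35 and 40 without CIT and 0, 7 and 4 with it. The groups with and without CIT did not overlap under either guide. Its log2 difference was -2.96 ± 0.60 (SE, adjusted p 0.0003031) under sgCtr and -3.76 ± 0.66 (adjusted p 6.942e-05) under sgNop16, and the levels were 7.88-fold (3.67 to 24.52) and 13.9-fold (4.07 to 64.8) lower. The sgNop16 ratio rests on 11 counts with CIT.

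Igkv1-88, its neighbour in the locus, also fell. Its counts were 56, 59 and 35 in unstimulated sgCtr libraries and 4, 0 and 4 with CIT, a log2 difference of -4.24 ± 0.82 (SE, adjusted p 0.0002137). Under sgNop16 they were 21, 45 and 33 without CIT and 0 in all 3 libraries with it (adjusted p 2.455e-05). The level was thus 19.7-fold (5.16 to 171) lower under sgCtr and at least 8.13-fold lower under sgNop16, where the group was at 0 and was set to a floor of 12 counts in all. The sgCtr ratio rests on 8 counts with CIT, which its interval reflects.

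The other 2 calls rested on fewer counts and on single libraries. Igkv19-93 fell from 17, 24 and 13 counts to 0, 4 and 0 under sgCtr, a log2 difference of -3.73 ± 1.27 (SE, adjusted p 0.02055). Under sgNop16 it fell from 8, 9 and 21 counts to 0, 0 and 2, a log2 difference of -4.00 ± 1.38 (adjusted p 0.02527). The sgCtr call ended without unstimulated sgCtr replicate 2 (adjusted p 0.05414) and without sgCtr CIT replicate 1 or 3 (adjusted p 0.07115 at most). The sgNop16 call ended without unstimulated sgNop16 replicate 3 (adjusted p 0.0911) and without sgNop16 CIT replicate 1 or 2 (adjusted p 0.07945 and 0.08852).

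Igkv1-110 rose with CIT under sgCtr, from 4, 9 and 6 counts to 29, 23 and 22, a log2 difference of 1.88 ± 0.66 (SE, adjusted p 0.02427). That call ended without unstimulated sgCtr replicate 1 or 3 (adjusted p 0.07615 and 0.06355) or sgCtr CIT replicate 1 (adjusted p 0.07855). Under sgNop16 it was at 18, 27 and 14 counts without CIT and at 23, 21 and 23 with it, a log2 difference of 0.21 ± 0.61 (adjusted p 0.8396). The interaction was -1.67 ± 0.89 (adjusted p 0.4444), so the CIT responses were not shown to differ between guides.

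**Figure D4:**
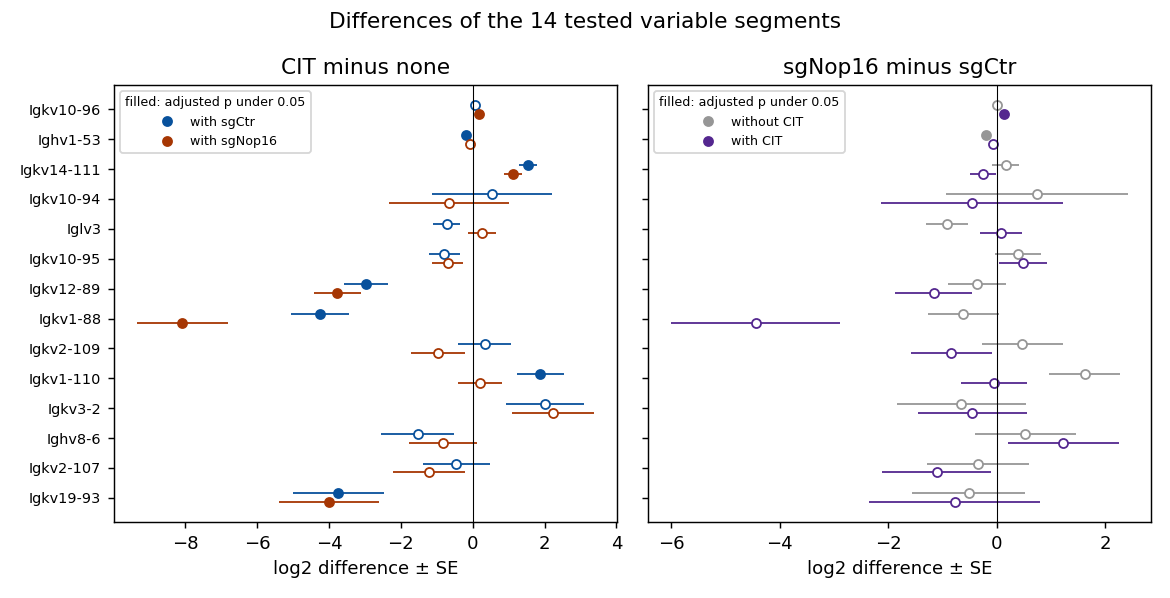
Log2 differences of the 14 tested members in the 4 comparisons between groups, with bars of 1 SE and filled points for calls at an adjusted p under 0.05. Igkv14-111 lies above 0 and Igkv12-89, Igkv1-88 and Igkv19-93 lie below 0 in both CIT comparisons; the fitted value of Igkv1-88 under sgNop16 (-8.08) rests on a group at 0 and depends on the prior count.

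Between guides few members were called, at shares near those of all tested genes. Without CIT 1 of the 14 tested members was called, Ighv1-53, which was lower, against 4.06% of all tested genes (2.14% higher and 1.92% lower). With CIT 1 was called, Igkv10-96, which was higher, against 7.12% of all genes (4.05% higher and 3.07% lower). The groups did not overlap for 4 and 2 members, against 18.8% and 24.1% of all genes. For the interaction edgeR called 0 of the 14, against 2.83% of all genes (1.23% above and 1.60% below 0); 3 had an unadjusted p under 0.05 and DESeq2 called 1, Igkv10-96. Under CIT the guide difference of Igkv1-88, at 8 counts in all with sgCtr and 0 with sgNop16, had an adjusted p of 0.1004.

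Igkv10-94, next in level after Igkv14-111, varied widely among libraries of the same group. It had counts of 10, 0 and 217 in unstimulated sgCtr libraries and 132, 17 and 176 with CIT. Under sgNop16 they were 10, 188 and 154 without CIT and 170, 15 and 28 with it. Each group thus held libraries at both ends of the range, and no library lay between 28 and 132 counts. Igkv10-95, the other near copy of Igkv10-96, was steadier, with group means from 0.464 to 1.06 CPM and 17 to 48 counts per library, and was not called in any comparison. Both kappa segments at least 90% identical to Igkv10-96 over at least 250 compared bases were members, and in the heavy chain locus 3 of 11 such segments were. How reads of the dominant segments contribute to the counts of these copies was not tested.

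In the heavy chain locus the other 4 members held 199 counts over the 12 libraries. Ighv8-6, which matched Ighv1-53 at 62.2% of 325 bases, held 56.8% of them, with 0 to 19 counts per library. Ighv1-61 and Ighv1-55, which are near copies, held 23.1% and 16.1%, and 21 of the 32 counts of Ighv1-55 came from unstimulated sgNop16 replicate 3. Ighv1-52 held 8 counts in all. In the lambda locus Iglv1 had a group mean of 0.235 CPM in unstimulated sgCtr cells and 0.0478 to 0.0683 CPM in the other groups, too low for the test.

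Members below the count filter included one with counts in a single group. Igkv12-46 had 4, 18 and 5 counts in unstimulated sgCtr libraries and 0 in the other 9. It is a member through that group alone, so the membership rule itself selected this pattern and no fold is read from it. Igkv12-40 had 10, 6 and 0 counts in that group and 3 counts in the rest. Such sums lie close to the floor.

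The kappa members did not scatter evenly along the locus. Counted from Igkc among the 160 kappa genes, Igkv10-96 lies at place 113, and of the 20 members 11, Igkv10-96 among them, lie on the strand opposite to Igkc. Places and strands here and below are those of the reference. The order and strands on the rearranged alleles of the line were not determined. Within 10 places of Igkv10-96 on either side, 6 of 20 genes were members, and outside this window 13 of 139 were. All 6 lie on the Igkc side, at places 103 to 110, and they include the near copies Igkv10-94 and Igkv10-95. Beyond Igkv10-96, farther from Igkc, the 5 members were Igkv2-107, Igkv1-108, Igkv2-109, Igkv1-110 and Igkv14-111, which take the adjoining places 126 to 130 and all lie on the strand of Igkc.

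Summed counts went up with CIT in some stretches of the locus and down in others. The 5 segments beyond Igkv10-96 together went from 363 to 925 counts under sgCtr and from 460 to 733 under sgNop16, of which Igkv14-111 alone went from 242 to 749 and from 280 to 597. Of the 5, 3 had a higher and 2 a lower mean with CIT under each guide, and without Igkv14-111 the stretch went from 121 to 176 counts under sgCtr and from 180 to 136 under sgNop16. Next to Igkv10-96 on the Igkc side, 6 members at places 101 to 108 (Igkv13-87, Igkv1-88, Igkv12-89, Igkv4-90, Igkv19-93 and Igkv2-93-1), of which 5 lie on the opposite strand, went from 423 to 46 counts under sgCtr and from 322 to 30 under sgNop16. In CPM these 6 were at 3.27 ± 0.428 without and 0.335 ± 0.0571 with CIT under sgCtr, and at 2.45 ± 0.230 and 0.231 ± 0.0460 under sgNop16. All 6 had a lower mean with CIT under sgCtr, and 5 of 6 did under sgNop16. Most counts of the 6 came from Igkv12-89, Igkv1-88 and Igkv19-93, which the filter kept for their level without CIT. They held 195, 150 and 54 of the 423 counts and 155, 99 and 38 of the 322. Igkv4-90, Igkv13-87 and Igkv2-93-1 went from 16, 7 and 1 counts to 3, 5 and 0 under sgCtr. Under sgNop16 the latter went from 18, 4 and 8 counts to 8, 6 and 3.

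Farther in, 4 members of the Igkv12 family at places 41 to 49, all on the opposite strand, went from 64 to 10 counts under sgCtr and from 37 to 4 under sgNop16. Of the 64 counts, 27 were of Igkv12-46 and 16 of Igkv12-40. Both are members through unstimulated libraries only, so the membership rule favoured this fall and no fold is read from it. The 2 segments nearest to the joining segments in the reference, Igkv3-1 and Igkv3-2 at places 1 and 2, went up, from 19 to 78 and from 19 to 76 counts. Of these 6, only Igkv3-2 was tested, and its CIT differences were 2.02 ± 1.09 and 2.23 ± 1.14 (SE, adjusted p 0.1505 and 0.1405). The stretches were drawn after the values were seen, leave out Igkv10-94 and Igkv10-95, and are a description with no test.

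**Figure D5:**
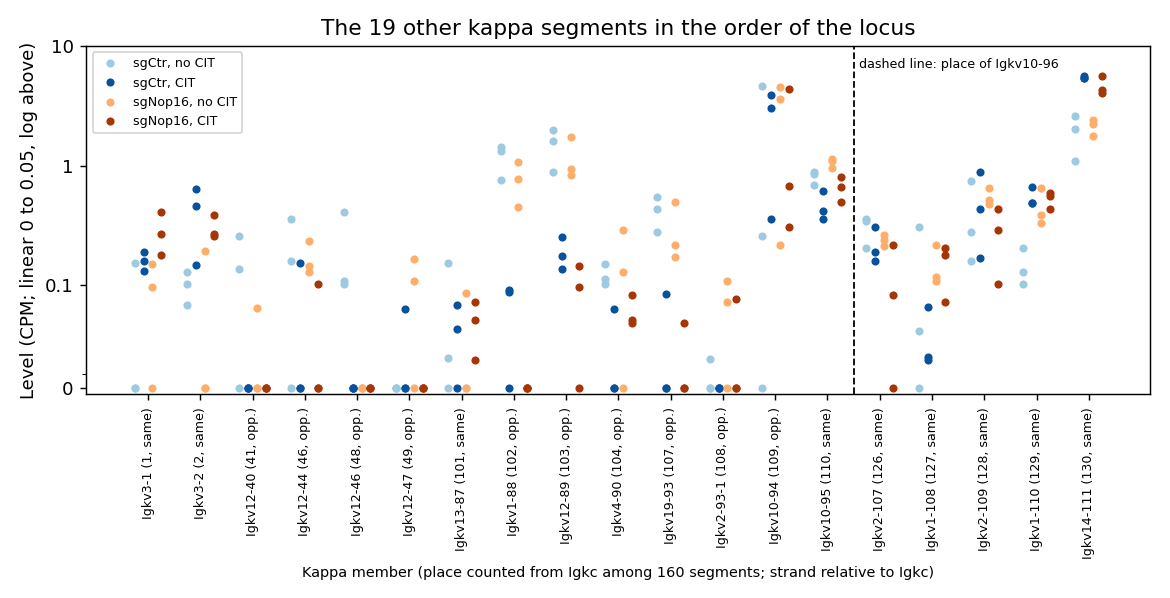
Levels of the 19 other kappa members in CPM, on an axis that is linear near 0 and logarithmic above, in their order along the locus from Igkc, with the place and the strand relative to Igkc beside each name and 1 point per library. With CIT, points lie lower for the members just left of the dashed line that marks Igkv10-96, except Igkv10-94 and Igkv10-95, and higher for Igkv14-111 at the right edge.

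Lists of genes that act on variable segments were tested in the same fit. Of 20 regulators of variable segment promoters and immunoglobulin enhancers, 9 rose and 8 fell with CIT under sgCtr, and 8 rose and 9 fell under sgNop16, beside 20.6% of all tested genes higher and 21.1% lower, and 19.3% and 18.5%. Pou2f2, the octamer binding factor Oct-2 of variable segment promoters, rose by log2 differences of 0.73 ± 0.03 and 0.51 ± 0.03 (adjusted p 4.945e-14 and 2.798e-11). Pou2f1, another octamer binding factor of the list, fell by -0.47 ± 0.04 and -0.58 ± 0.04 (adjusted p 5.221e-09 and 1.936e-10). Irf8, an interferon regulatory factor of B cells, rose by 0.83 ± 0.04 under sgCtr (adjusted p 6.172e-14). Ikzf3, the zinc finger factor Aiolos, rose by 1.54 ± 0.03 and 1.44 ± 0.03 (adjusted p 9.393e-21 and 3.708e-20). Prdm1, a repressor that drives plasma cell differentiation, fell by log2 differences of -2.26 ± 0.23 and -1.82 ± 0.23 (adjusted p 2.672e-08 and 1.075e-06), and Ets1, an ETS family factor of lymphocytes, by -0.75 ± 0.03 and -0.79 ± 0.03 (adjusted p 4.512e-15 and 2.131e-15).

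Between guides 1 regulator was higher and 3 were lower with sgNop16 without CIT, and 1 was higher and 8 were lower with CIT, beside 2.14% and 1.92% of all genes, and 4.05% and 3.07%. Ets1 was lower in both states (-0.29 ± 0.03 and -0.33 ± 0.03, adjusted p 3.903e-06 and 4.69e-07). Xbp1 was also lower in both states (-0.29 ± 0.03 and -0.13 ± 0.03, adjusted p 6.521e-06 and 0.0212). Pou2af1, the coactivator of octamer factors in B cells, was lower without CIT (-0.14 ± 0.03, adjusted p 0.009678). Irf8 was higher without CIT (0.20 ± 0.04, adjusted p 0.005055) and lower with it (-0.32 ± 0.04, adjusted p 1.742e-05). With CIT Irf4 was higher (0.18 ± 0.04, adjusted p 0.004471). The interaction was called, below 0, for 4 of the 20 regulators, beside 2.83% of all genes called and 1.60% called below 0. Among these regulators were Irf8 (-0.52 ± 0.06, adjusted p 8.251e-06) and Pou2f2 (-0.21 ± 0.05, adjusted p 0.01951).

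Of 14 constant and joining chain genes, 7 rose and 4 fell with CIT under sgCtr and 9 rose and 4 fell under sgNop16, beside 41.7% and 37.8% of all tested genes called. Between guides 6 were lower and 0 higher with sgNop16 without CIT, and 5 were lower and 2 higher with CIT. Of 4 assembly partners of the antigen receptor, 2 were lower without CIT, and with CIT 2 were higher and 1 lower. In these guide comparisons 4.06% and 7.12% of all genes were called. Mzb1, a chaperone of the endoplasmic reticulum that helps antibody assembly, had a called interaction of 0.28 ± 0.04 (adjusted p 0.0006395).

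Genes of the recombination step itself were near 0. Rag1, a subunit of the recombinase that joins the segments, reached 0.0968 CPM in a single library, and Rag2, the other subunit, was at 0 in all. Of the 6 recombination and surrogate light chain genes only Vpreb1, a part of the surrogate light chain, had enough counts for the test, with adjusted p between 0.06044 and 0.8665 over the 5 comparisons.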

How the data were processed

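RNA was measured in 12 libraries, made from total RNA with a directional kit per the labels' protocols. The submitters' processing notes name HISAT2 2.2.1, StringTie 2.2.1 and the build GRCm39. For the annotation release and the use of strand in counting, nothing is stated in what was used here. Per gene, the authors deposited estimated counts as whole numbers, which were used as they stand. Symbols, exon lengths, gene order and coding sequences come from GENCODE M21, built on GRCm38, which matched 51948 of 56941 genes; since the builds differ, no coordinates are given. Tables of RefSeq proteins were not used here.

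The quasi-likelihood test of edgeR 4.0.16 (R 4.3.3) was run on genes kept by filterByExpr, with TMM factors between 0.985 and 1.013 and a mean per group; 16794 genes were tested and p adjusted over them by Benjamini-Hochberg. The SE of a log2 difference was derived from that test, as its absolute value divided by the square root of the F statistic. CPM are scaled by the same factors. Shares and sums by locus were compared with exact permutation tests. A fold against a group with a count of 0 in all its libraries is a lower bound, computed with that group set to 12 counts, and other folds are ratios with counting intervals, wide where a group held few counts. Identities were counted with Biopython 1.88 under Python 3.11.15, and the tests were checked on simulated data.

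Named are Nop16, the 3 most abundant members of each locus, members called in any comparison, members at the detection threshold, and called genes of the lists, up to 3 each way; others were named after their values were seen. The members and lists were chosen with earlier results of these data known. Samples of different groups that share a replicate number mostly did not deviate together (2 of 18 pairs had a correlation over 0.1), so numbers were not taken as pairs. Both of these pairs lay between sgCtr and sgNop16 with CIT, where replicates 1, 2 and 3 gave 0.092, 0.19 and 0.20. With 4 counts taken as a fragment, replicates differed by more than counting noise. Alternatives were RLE size factors, library totals, no filter or a stricter one, values divided by 4, a replicate block, only the groups compared, DESeq2 1.42.0 and leaving out each library; summing or leaving out the near copies of Igkv10-96 was chosen after seeing the data.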

Additional observations from a re-analysis of the deposited data

How the results depend on the processing

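Counts of called members kept to within 1.5 times under most alternatives. Under the stricter filter of 5 CPM in 3 libraries, which left 3 members to test, 3 were called for the CIT response with sgCtr and 2 with sgNop16. DESeq2 called 1 for the interaction. Leaving out each library in turn gave 4 to 6 calls for the CIT response under each guide, 1 to 1 for the guide difference without CIT, 1 to 2 for that with CIT (2 without sgCtr CIT replicate 2, when Igkv1-88 joined at adjusted p 0.04037) and 0 to 1 for the interaction (1 without unstimulated sgNop16 replicate 3). With the replicate number as a block, 1, 1, 6, 5 and 0 members were called in the order guide difference without and with CIT, CIT response under sgCtr and sgNop16, and interaction, the same counts as without it. No called value changed sign. Among differences that were not called, 30 changed sign, all of them still not called. For the kappa sum, CIT against none, the difference was -0.363 CPM per kilobase, -2.96 CPM without Igkv14-111, and -0.509 to 0.730 without each library; between guides it was -0.993 to 0.246. The kappa share with CIT differed by -0.00629 points without Igkv10-94 and Igkv10-95 and by -0.00183 to 0.273 without each library. Without each library, log2 guide differences without CIT ran from -0.0223 to 0.0240 for Igkv10-96 and -0.11 to 0.45 for Igkv14-111. Those with CIT ran from -0.14 to 0.11 for Igkv1-110, -3.48 to 2.69 for Igkv19-93, -2.30 to 0.0652 for Igkv10-94 and -0.0385 to 0.21 for Iglv3. The sgCtr CIT response of Igkv10-94 ran from -0.0401 to 4.27 and the interaction of Igkv19-93 from -2.97 to 3.20. Causes were not tested. Of the single members, 9 calls were lost and 6 gained, and 954 values kept direction and side. The share and sum without the next segment gave no value for lambda, where 1 segment was then left. Depth limits the low members: 17 of 27 members had a mean count under 12, or about 3 fragments.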

Other observations

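Joining segments, which are no members, and were named after their values were seen, showed 1 leading segment per chain as well. Ighj2 held 74.1 to 83.7% of the heavy joining segment counts per library, with a median of 80.8%, and Igkj1 held 78.5 to 86.0% of the kappa joining counts, with a median of 83.3%. In lambda no joining segment led in this way: the median shares of Iglj1, Iglj2 and Iglj3 were 36.8%, 36.1% and 26.2%.

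In sgNop16 CIT replicate 3, Ighj1 had 230 counts and the diversity segment Ighd1-1 had 73, against 79 to 119 and 17 to 25 in the other 11 libraries. Ighj2 had 1071 counts in that library, within its range of 994 to 1391. No comparison rests on these counts.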
